A study of Mus musculus with 3 samples.

Results

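The protein genes of the cytosolic ribosome were followed over 3 mouse microarrays. Their labels name sarcoma tissue or cultured tumor cells with an inducible EWS/ATF1 transgene. Members were taken by symbol from probe sets with a single gene symbol: Rpl or Rps followed by a digit, plus Rplp0, Rplp1, Rplp2 and Rpsa, without the Rps6k kinases and without symbols marked as pseudogenes (-ps). This gave 63 genes, read by 219 of the 28856 probe sets, out of 19938 genes that have a probe set of their own. Of the 63 genes, 54 encode core proteins, 33 of the large and 21 of the small subunit. The other 9 are paralogs, retrogenes or binding partners that the symbols take in (Rpl3l, Rpl7l1, Rpl10l, Rpl32l, Rpl39l, Rps4l, Rps19bp1, Rps23rg1 and Rps27l). A further 26 of the 80 canonical core proteins are not analysed here, among them Rpl11, and so is Rack1.

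The EWS/ATF1 fusion drives human clear cell sarcoma. It links a portion of EWSR1, which binds RNA, with ATF1, a DNA-binding factor related to CREB. Per the labels, the array named tumor carries RNA extracted directly from a soft tissue sarcoma of a mouse that had received doxycycline for 3 months. The array named high doxycycline is labelled as RNA of a tumor cell line 24 hours after exposure to doxycycline at 0.2 microg/ml. The array named control is labelled as RNA of such cells at 0 microg/ml at the same time. Markers given below go against the labels tumor and control. By the labels all 3 share a mixed C57/BL6, 129 and ICR background and the inducible fusion, so that the control too would carry the transgene. The sources used here do not name the promoter that drives the transgene or the number of cell lines. Each group has 1 array, so no difference has a replicate check, no p-value can be given, and folds and counts describe these 3 arrays.

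Ribosomal proteins are made in matched amounts and are built, with ribosomal RNA, into the small subunit, which decodes the messenger RNA, and the large subunit, which forms the peptide bond. Many of their messenger RNAs start with a terminal oligopyrimidine tract, a C followed by a run of C and T (U in the RNA), through which the mTOR pathway and the RNA-binding protein LARP1 control their translation. An array reads the amount of messenger RNA and not its translation. The genes are among the most strongly expressed of growing cells, and their processed copies are scattered over the genome, so that several probe sets can read the same or near-identical sequence.

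Differences between whole arrays touched all comparisons. The median intensity over all probe sets was 219.8 on the array labelled tumor, 226.7 on high doxycycline and 250.02 on control. The labels did not match most markers of other cell types, which were dim on the array said to hold tumor tissue and bright on the array said to hold cultured control cells. Of 17 macrophage markers, 1 lay above the array median on tumor, 2 on high doxycycline and 16 on control, with median log2 levels of 6.67, 6.82 and 10.56. Of 12 endothelial markers these counts were 2, 2 and 11 (medians 7.19, 7.30 and 9.54), and of 13 skeletal muscle markers 3, 4 and 12 (7.21, 7.32 and 10.90). Of 12 fibroblast and matrix markers, 10 lay above the array median on tumor, 8 on high doxycycline and 12 on control, with median levels of 8.21, 7.96 and 12.15. Of 6 lymphocyte markers, 0 lay above the array median on tumor, 1 on high doxycycline and 2 on control (6.44, 6.55 and 6.73), so that these were dim on every array. No marker was at 0, since the lowest intensity of any probe set was 20.7. Their part in the differences of ribosomal protein genes was not tested. Whether the labels tumor and control were exchanged cannot be told from the files. If they were, tumor minus control would have a median of 0.27 over the ribosomal protein genes, with 13 brighter by 2-fold and 1 dimmer, and high doxycycline minus control a median of 0.07, with 0 past 2-fold. Tumor minus high doxycycline would have a median of 0.17, with 8 brighter and 2 dimmer. All genes would turn round as well. As labelled, of all genes that passed the filter given below, 18.5% were 2-fold brighter and 10.2% dimmer for tumor minus control. These shares were 17.4% and 8.45% for high doxycycline minus control, and 1.58% and 1.94% for tumor minus high doxycycline. Every direction given here is between arrays as they are labelled. Proliferation genes had median log2 levels of 7.88 on tumor, 9.59 on high doxycycline and 9.62 on control. In RNA of mixed cells, fewer cells of a type and less RNA per cell cannot be told apart.

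The start of a ribosomal protein gene is shown here because its tract defines this class of messenger RNA. RefSeq promoter sequences of build GRCm38.p6 were found for 51 of the 63 members. A C followed by at least 4 pyrimidines, starting within 10 bases of the annotated start, was present in 29 of them (56.9%), against 34.4% of 27025 mouse genes in the same table. Rps6, the substrate of the ribosomal S6 kinases, Rpl28 and Rpl38 carried such a tract. Rpl24, Rps28 and Rpl37a carried none in this window. Their brightest probe sets were at least 2-fold dimmer on both other arrays than on the array labelled control. These examples were chosen with their values known. Each line gives 30 bases, from 10 before the annotated start, with the tract in capitals.
Rps6: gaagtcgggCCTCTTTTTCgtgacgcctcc, chr4:86857348-86857377, minus strand
Rpl28: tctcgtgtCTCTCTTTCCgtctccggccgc, chr7:4792955-4792984, plus strand
Rpl38: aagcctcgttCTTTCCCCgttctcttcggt, chr11:114668570-114668599, plus strand
Rpl24: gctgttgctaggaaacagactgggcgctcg, chr16:55966265-55966294, plus strand
Rps28: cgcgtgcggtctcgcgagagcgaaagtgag, chr17:33824543-33824572, minus strand
Rpl37a: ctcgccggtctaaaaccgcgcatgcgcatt, chr1:72711250-72711279, plus strand
A missing tract says only that these letters do not stand at the annotated start, which can differ from the start used in the cells. Other members do not follow these examples. Rps12 and Rpl39l carried a tract and differed by -0.89 and -2.18 for tumor minus control. Rpl39l is a paralog that lay above the array median only on the array labelled control. Rpl9 and Rpl4 carried no tract and differed by 0.00 and 0.01.

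The share of all intensity that fell on the 219 probe sets was 4.37% on the array labelled tumor, 4.50% on high doxycycline and 6.14% on control. The median intensity of the 63 genes was 3910.2 on tumor, 4693 on high doxycycline and 5909 on control. Of the 54 core genes, 37 were highest on the array labelled control and 8 lowest there, and 33 (61.1%) stood in the order tumor, high doxycycline, control from low to high, which is also the order of the array medians. Over 12111 genes bright in any comparison, 34.4% were highest on control, 49.6% lowest there and 19.7% in that order. With the arrays set to the same median, 31 core genes were highest on control, 21 lowest there and 25 in that order, beside 27.7%, 65.9% and 14.7% of all genes. Of the core genes, 5 had exactly equal values on all 3 arrays. Levels of different genes are not compared, since each probe set has its own response.

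**Figure D1:**
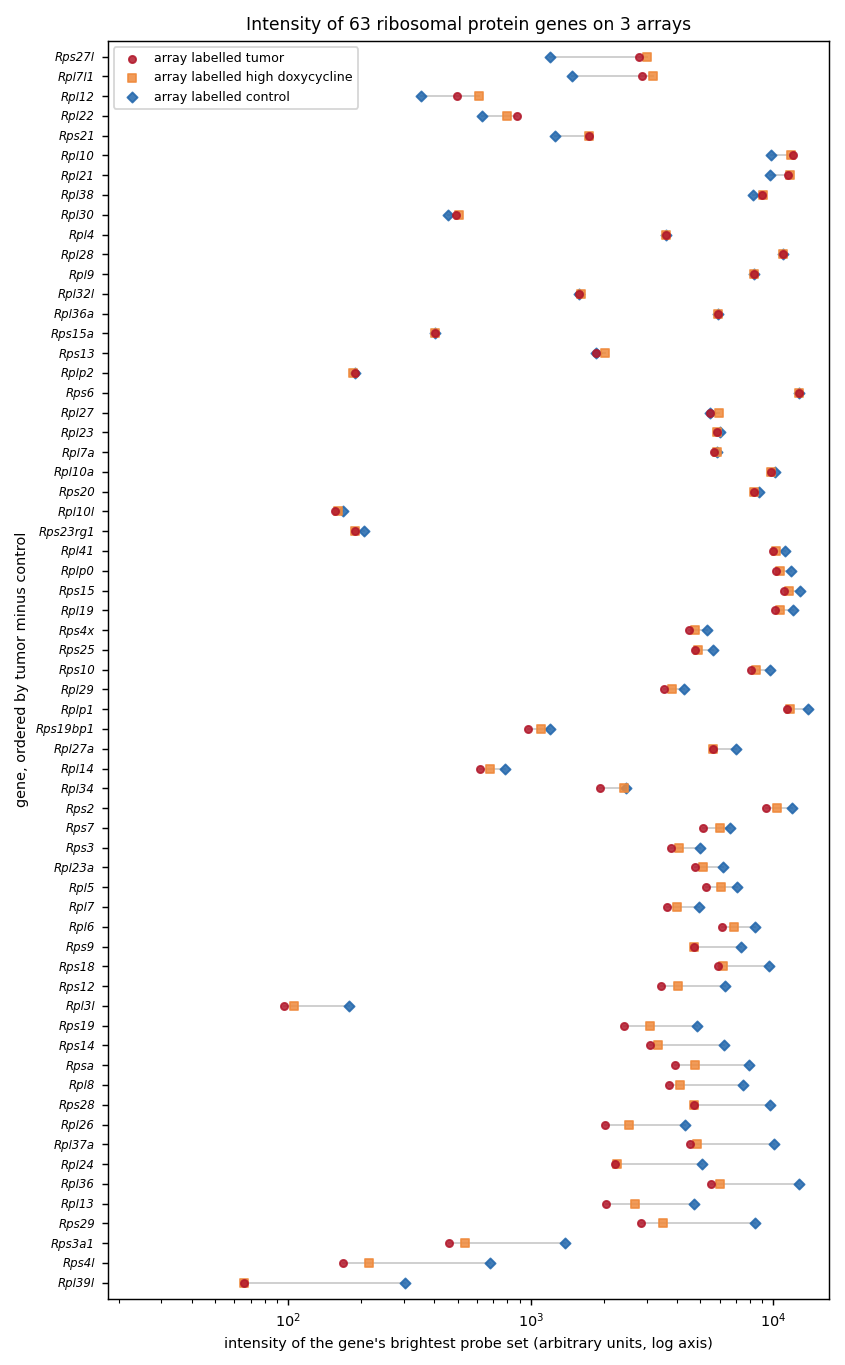
Intensity of each of the 63 genes on the 3 arrays, read by the brightest probe set of the gene (arbitrary units, log axis), with genes ordered by the log2 difference of tumor minus control. Values are to be compared along a row. Red circles (tumor) and orange squares (high doxycycline) lie close together, and the blue diamonds (control) lie far to the right in the lower rows, as for Rps29 at 2838, 3489 and 8418, and to the left for Rps27l at 2796, 3002 and 1198.

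The array labelled tumor was first set against the array labelled control. A gene entered if its value exceeded the median of all probe sets on whichever array of the pair it was brighter on, which left 59 of the 63 members, and differences are of log2(intensity + 1). Of these 59, 13 were at least 2-fold dimmer on tumor and 1 was at least 2-fold brighter, and 40 lay within 1.5-fold. Over all 12010 genes that passed the same filter, 10.2% were at least 2-fold dimmer and 18.5% at least 2-fold brighter. The members dimmer by 2-fold made up 22.03%. Among 53 core proteins, 11 (20.8%) were dimmer by 2-fold. The other 2, Rpl39l and Rps4l, passed the filter only through the array labelled control. The median difference of the members was -0.27, with 25% of them below -0.80, beside 0.08 over all genes and 0.27 over the genes above percentile 75 of brightness. The members spread less than genes in general, with an SD over genes of 0.65 against 1.09. By sign, 10 members were higher, 42 lower and 7 equal. This split depends on scaling, since setting the arrays to the same median adds 0.19 to every difference of this pair: it became 23 higher and 36 lower under that shift and 9 higher and 50 lower under quantile normalization, with the median below that of all genes in each case. Of all genes, 53.4% were higher and 38.9% lower as deposited. With equal medians 7 members (11.9%) were at least 2-fold dimmer, beside 8.04% of all genes, and Rps14, Rps28, Rpsa, Rpl8, Rpl26 and Rpl37a no longer were.

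Of the small subunit genes, 5 of 21 (23.8%) were at least 2-fold dimmer on tumor, beside 10.2% of all genes. None was 2-fold brighter, beside 18.5%, and the median difference was -0.37. Rps29, a zinc-binding protein of the small subunit head, had an intensity of 2838 on tumor, 3489 on high doxycycline and 8418 on control, a difference of -1.57 between tumor and control. Rps3a1, once described as a transformation effector of v-fos, had 461, 537 and 1382 in the same order, a difference of -1.58. Rps28 had 4724 on tumor, 4693 on high doxycycline and 9715 on control (-1.04 for tumor minus control). In these 3 genes the first 2 arrays lay closer to each other than to the array labelled control. Genes in general also spread less between those 2 arrays, with an SD over all genes of 0.39. Against control the SD was 1.09 for tumor and 1.02 for high doxycycline. Tumor minus high doxycycline was 0.01 for Rps28, but -0.30 for Rps29 and -0.22 for Rps3a1. Rpsa, which was first described as a laminin receptor precursor, had 3910.2, 4747 and 7899.6 (-1.01), and Rps14, whose human counterpart lies in the region lost in 5q- syndrome, had 3097, 3331 and 6244 (-1.01). Both differences were larger in the other probe sets of these genes. Rps19, the gene most often mutated in human Diamond-Blackfan anaemia, lay just inside the threshold, with 2431 on tumor, 3088 on high doxycycline and 4846 on control (-0.99).

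Smaller differences of the same sign were found for Rps12 (-0.89), Rps18 (-0.71) and Rps9 (-0.64). Rps9, which takes part in the accuracy of decoding, had 4683 on tumor, 4697 on high doxycycline and 7315 on control, so that its values on the first 2 arrays nearly coincided. Rps3, at the entry of the messenger RNA channel, had 3784, 4066 and 4965 (-0.39). Rps10 and Rps25 lay closest to the median of all members, at -0.26 each, together with Rpl29 at -0.27, which is the median member. Only Rps21 among the small subunit genes was higher on tumor, with 1737 on tumor and high doxycycline and 1257 on control (0.47), and its other probe set went the opposite way. Rps6 had 12710.1, Rps15a had 401 on every array, and Rps13 had 1847 on tumor and control and 2017 on high doxycycline.

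Of 32 large subunit genes that passed the filter, 6 (18.8%) were at least 2-fold dimmer on tumor, beside 10.2% of all genes. None was 2-fold brighter, beside 18.5%, and the median was -0.23. Rpl13 had 2037 on tumor, 2678 on high doxycycline and 4702 on control, a difference of -1.21. Rpl36 had 5539, 5991 and 12708 in that order, a difference of -1.20. Rpl24, part of a bridge to the small subunit and the gene of the mouse mutant Belly spot and tail, had 2227, 2269.7 and 5074 (-1.19). Each of these genes was more than 2-fold brighter on control than on tumor, and for Rpl24 the arrays labelled tumor and high doxycycline differed by only -0.03. Rpl37a, a zinc finger protein, had 4526 on tumor, 4846 on high doxycycline and 10008 on control (-1.14). Rpl26, which in human cells also binds the messenger RNA of p53, had 2012, 2537 and 4306 (-1.10). Rpl8, which lies near the catalytic centre, had 3697, 4119 and 7475 (-1.02).

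By sign, 22 of the 32 large subunit genes were lower on tumor, 3 equal and 7 higher. Rpl12, at the base of the stalk, had 495 on tumor, 613 on high doxycycline and 354 on control, a difference of 0.49 between tumor and control. Rpl22, which an RNA of Epstein-Barr virus binds in human cells, had 877, 794 and 628 (0.48). Rpl10, needed in the last steps of large subunit maturation, had 12069 on tumor, 11820.4 on high doxycycline and 9798 on control (0.30), and Rpl21 had 11424, 11725 and 9656 (0.24). Rpl12, Rpl22, Rpl10 and Rpl21 kept this sign under both scalings. Rpl38, which in mouse embryos is needed for translation of Hox messenger RNAs, had 8949, 9019.9 and 8226 (0.12), and Rpl4, a protein of the peptide exit tunnel, had 3605 on tumor and high doxycycline and 3589.8 on control. Rpl9, Rpl28 and Rpl36a had the same value on every array, 8343, 10981 and 5909. Rpl5, which with Rpl11 and its RNA can bind the p53 regulator Mdm2, had 5286 on tumor, 6057 on high doxycycline and 7058 on control (-0.42).

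The P-stalk proteins, which recruit elongation factors, lay near the members' median in their brightest probe sets, where they could be compared. Rplp0 had 10260 on tumor, 10651 on high doxycycline and 11781 on control (-0.20 for tumor minus control). Rplp1 had 11371, 11651 and 13859 (-0.29). The other probe set gave -0.37 for Rplp0 and -0.55 for Rplp1. Rplp2 had 188, 185 and 188 and lay below the median of every array, so that it entered no comparison.

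Of the 9 paralogs and related genes, 6 passed the filter. Rps27l, a paralog of Rps27 that p53 induces, had 2796 on tumor, 3002 on high doxycycline and 1198 on control, a difference of 1.22 between tumor and control, and was the only member at least 2-fold brighter there (0.98 under quantile normalization). Rpl7l1, a paralog of Rpl7, had 2881, 3188 and 1475 (0.97), while Rpl7 itself had 3629, 3999 and 4928 (-0.44). Paralog and parent thus stood on opposite sides of the array labelled control. Rpl39l, the paralog of Rpl39 that male germ cells express, had 65.6 on tumor and high doxycycline and 302 on control. Its difference of -2.18 rests on a dim value and was -1.50 with a pseudocount of 64. Rps4l, which RefSeq lists as a transcribed pseudogene, had 168, 215 and 677 (-2.01, or -1.68 at its smallest over the settings tried), against -0.26 for Rps4x. Both were above the array median only on the array labelled control, so that they passed the filter through that array. Rpl32l (1584 on tumor and control, 1602 on high doxycycline) and Rps19bp1, a binding partner of Rps19 (969, 1103 and 1201), differed less. Rpl3l, the striated muscle paralog of Rpl3, had 95.8, 106 and 179. It lay below the median of every array, as did the retrogenes Rpl10l (155, 161 and 168) and Rps23rg1 (188, 188 and 205).

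High doxycycline was then compared with the same control array, so that this comparison shares an array with the first and is not independent of it. Of 59 members, 8 were at least 2-fold dimmer on high doxycycline, beside 8.45% of all 11933 genes that passed the filter, and 2 were at least 2-fold brighter, beside 17.4%. The 8 members make up 13.6%. Among 53 core proteins, 6 (11.3%) were dimmer by 2-fold. The other 2, Rpl39l and Rps4l, passed the filter only through the array labelled control. The median difference was -0.17, beside 0.08 over all genes. By sign 13 members were higher and 40 lower, beside 53.9% and 36.9% of all genes, which became 26 and 33 with equal array medians, which add 0.14 to every difference of this pair, and 9 and 50 under quantile normalization. The small subunit genes had a median of -0.22 with 3 of 21 dimmer by 2-fold, and the large subunit genes -0.13 with 3 of 32. These were Rps3a1 (-1.36), Rps29 (-1.27), Rpl24 (-1.16), Rpl36 (-1.08), Rps28 (-1.05) and Rpl37a (-1.05), joined by Rpl39l (-2.18) and Rps4l (-1.65). With equal medians 5 members (8.47%) were dimmer by 2-fold, beside 7.09% of all genes, and Rpl36, Rps28 and Rpl37a fell short of 2-fold, at -0.94, -0.91 and -0.91.

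The 2 brighter members were Rps27l (1.32) and Rpl7l1 (1.11), neither of them a core protein, and Rpl7l1 had 0.81 under quantile normalization. Rpl12 followed at 0.79 and Rps21 at 0.47. Overlap between the 2 comparisons with control was not counted over all genes. Few genes of any kind separated tumor from high doxycycline by 2-fold, 1.58% brighter and 1.94% dimmer on tumor. All 8 members dimmer by 2-fold here were also dimmer by 2-fold in the first comparison, where Rpl13 (-0.81 here), Rpl26 (-0.76), Rpl8 (-0.86), Rpsa (-0.73) and Rps14 (-0.91) passed as well. That these 5 lay lower on tumor than on high doxycycline follows from this choice, since both differences share the control array.

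Last, tumor was compared with high doxycycline. No member was at least 2-fold brighter or dimmer, of 57 that passed the filter, beside 1.58% and 1.94% of all 11212 genes. The differences ran from -0.39 for Rpl13 to 0.14 for Rpl22, with an SD over genes of 0.11 against 0.39 over all genes. The median was -0.07, beside 0.00 over all genes, and 44 members (77.2%) were lower on tumor, 10 equal and 3 higher, beside 40.6% lower and 33.1% higher of all genes. This split became 33 lower and 24 higher under a common median and 38 lower and 19 higher under quantile normalization. After Rpl13, the lowest were Rps19 (-0.34), Rpl26 (-0.33), Rpl34 (-0.33), Rpl12 (-0.31), Rps29 (-0.30), Rpsa (-0.28) and Rps12 (-0.23). Rpl34 had 1934 on tumor, 2429.7 on high doxycycline and 2461 on control, so that it stood apart on the array labelled tumor, unlike Rpl24 or Rps28.

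**Figure D2:**
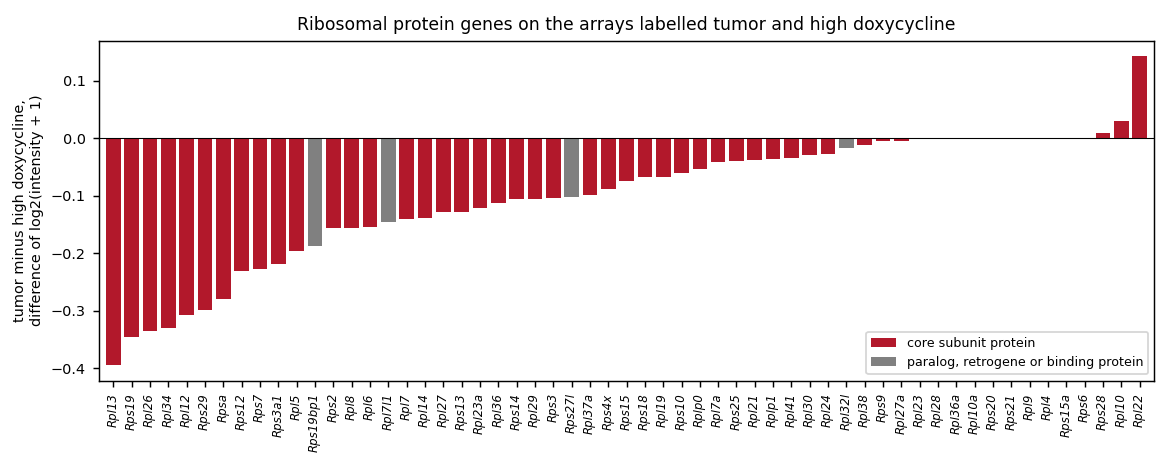
Difference of log2(intensity + 1), tumor minus high doxycycline, for each of the 57 members that passed the brightness filter, in order. Red bars are core proteins and grey bars the paralogs, retrogenes and binding partners. The bars run from -0.39 for Rpl13 to 0.14 for Rpl22, and most lie below 0.

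Probe sets of the same gene show how far readings of a gene scatter within an array pair. They share the RNA and the array, so this scatter holds no error between arrays or samples. Of the 63 members, 39 (61.9%) have several probe sets, against 5.01% of all genes, and Rps12 has the most, 14. Between tumor and control the difference had an SD of 0.56 between the means of these 39 genes and a pooled SD of 0.15 between probe sets of the same gene. For high doxycycline minus control these were 0.50 and 0.12, and for tumor minus high doxycycline 0.098 and 0.045. All probe sets of a gene had differences of the same sign, or 0, in 37 of 39 genes in each comparison with control. The exceptions were Rpl23 and Rps21. No member had probe sets that disagreed by 1 or more on the log2 scale, whereas 22.3% of 632 other genes with several probe sets did for tumor minus control.

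For the named genes, the 9 probe sets of Rpl36 ran from -1.38 to -1.14 for tumor minus control, and the 9 of Rpl13 from -1.43 to -1.08. The 7 probe sets of Rps28 ran from -1.13 to -0.96, and the 4 of Rps29 from -1.91 to -1.57. Of the 3 probe sets of Rpl24, only the brightest passed 2-fold, at -1.19, and the others gave -0.99 and -0.87. For high doxycycline minus control they gave -1.16, -0.93 and -0.78. For Rpsa the brightest of its 5 probe sets gave the smallest difference, -1.01, and the others reached -1.98, with a mean of -1.59. Rps14 behaved in the same way, with -1.01 in the brighter and -1.76 in the dimmer of its 2 probe sets. At the other end, the 6 probe sets of Rpl10 ran from 0.29 to 0.38 and the 9 of Rpl21 from 0.07 to 0.43. The 2 probe sets of Rps21 gave -0.47 and 0.47. These probe sets are not independent measurements: 20 pairs of them had values within 0.1% of each other on all arrays, and which ones read the gene and which a processed copy cannot be told apart here. For Rpl24, Rpl36, Rps28 and the others, the values may therefore include near-identical copies.

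**Figure D3:**
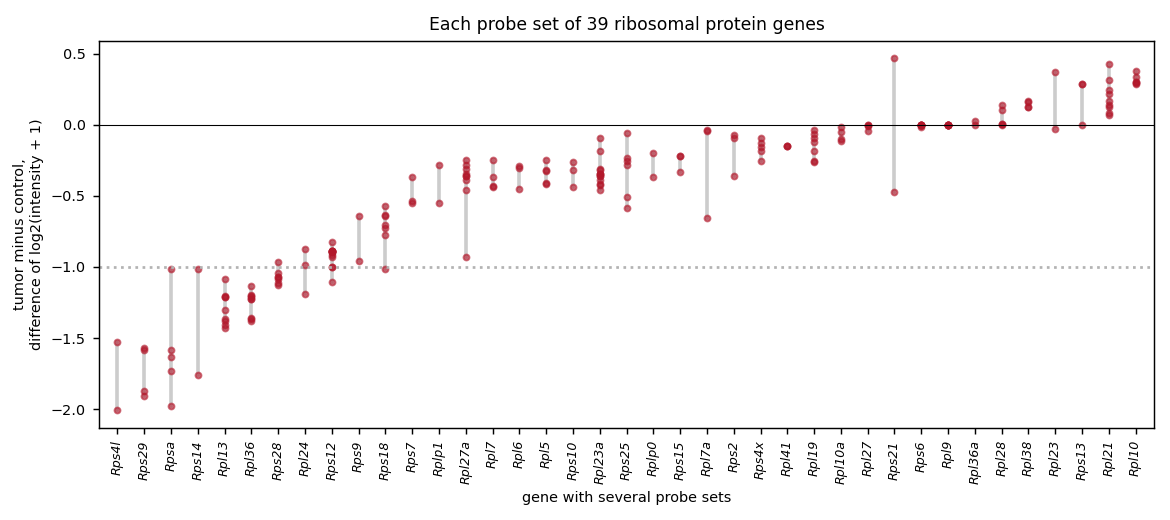
Difference of log2(intensity + 1), tumor minus control, for every probe set (points) of the 39 members that have several, joined by a grey line per gene and ordered by the mean of the gene. The dotted line marks 2-fold dimmer. Points of a gene lie close together compared with the spread between genes, and Rps21, with points at -0.47 and 0.47, has the line that crosses 0 most widely.

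Exactly equal values bear on the genes that looked level. Of the 219 probe sets, 18 (8.22%) had the same value on all 3 arrays, against 14.95% of all probe sets on the chip. They were all 8 of Rpl9, 7 of the 8 of Rps6, and 1 each of Rpl28, Rpl36a and Rps15a. The arrays labelled tumor and high doxycycline alone shared equal values in 37 of the probe sets (16.9%), against 34.6% of all. The sources used here do not say why, so that Rpl9 and Rps6 are given as equal in the table and not as measured to be unchanged.

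Related groups of protein synthesis genes were counted in the same way. Mitochondrial ribosomal proteins, which build the separate ribosome of that organelle from nuclear genes, had a median difference of 0.57 for tumor minus control, with 25 of 77 genes (32.5%) at least 2-fold brighter and 2 (2.60%) dimmer, beside the 18.5% and 10.2% of all genes. For high doxycycline minus control they had a median of 0.61, with 24 (31.2%) brighter and 2 dimmer, beside 17.4% and 8.45%. Mrpl49 had 2680.2 on tumor, 2575 on high doxycycline and 601 on control, whereas Mrpl52 had 1279.97, 1516 and 4451. Of 34 translation factors, 8 (23.5%) were at least 2-fold brighter on tumor, near the 18.5% of all genes, and 1 (2.94%) was dimmer, beside 10.2%. Their median of 0.10 turned to -0.01 under quantile normalization. The brighter ones included Eif5a, a factor of elongation and termination (8583, 9174 and 2356), and Eif1ax, a factor of start site selection (2866, 2866 and 557). Eif3i was the dimmer one (1722, 2268 and 3601). The elongation factor gene Eef1a1, whose messenger RNA also has an oligopyrimidine start, had 18742, 18742 and 19239.8.

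Genes of ribosome assembly and the nucleolus were brighter by 2-fold on tumor than on control in 10 of 49 cases (20.4%), with a median of 0.00. On high doxycycline 10 were brighter than on control, with a median of 0.26. The brighter shares are near the 18.5% and 17.4% of all genes. None was dimmer by 2-fold in either comparison, beside 10.2% and 8.45% of all genes. Npm1, the abundant nucleolar protein nucleophosmin, had 2000.3 on tumor, 2436 on high doxycycline and 790.4 on control. Nmd3, an export adaptor of the large subunit, had 1493, 1818 and 601, while Ncl (nucleolin) had 2762, 3059.9 and 4475. Of 16 genes of RNA polymerase I and its factors, Rrn3, the initiation factor that responds to growth signals, was the only one brighter by 2-fold (3107, 3527 and 951). This is 6.25% of the list in each comparison with control, beside 18.5% and 17.4% of all genes. The polymerase list had medians of 0.28 for tumor minus control and 0.32 for high doxycycline minus control. In the third comparison no gene of the mitochondrial, translation factor, assembly or polymerase lists differed by 2-fold. Of all genes, only 1.58% were brighter and 1.94% dimmer by 2-fold there. These lists were chosen with earlier results of these arrays known, and differences between lists were not tested.

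**Figure D4:**
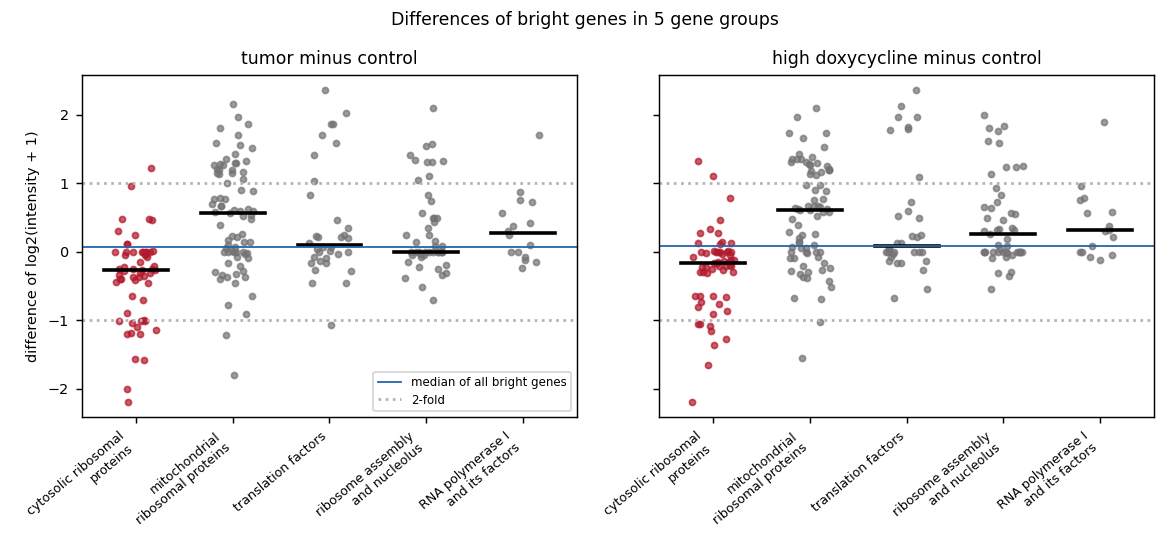
Difference of log2(intensity + 1) for each bright gene (points) of 5 groups, with tumor minus control on the left and high doxycycline minus control on the right. Black bars mark the median of each group, the blue line the median of all bright genes and dotted lines 2-fold. The cytosolic ribosomal proteins (red) have medians of -0.27 and -0.17, below the blue lines at 0.08, and the mitochondrial ones have 0.57 and 0.61.

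Sequences around the starts were then read beside the differences. Among members above the brightness filter, the 25 with a tract had a median difference of -0.25 for tumor minus control and the 22 without one -0.26. By count, 1 of the 25 was at least 2-fold dimmer on tumor (Rpl39l), and 7 of the 22 were (Rpl13, Rpl24, Rpl26, Rpl37a, Rps28, Rps3a1 and Rpsa). Over all genes the share was 10.2%. Rpl39l passed the filter only through the array labelled control, and the difference between these counts was not tested. Rpl36, Rpl8, Rps14, Rps29 and Rps4l, also dimmer by 2-fold, were not matched. For high doxycycline minus control the medians were -0.05 with a tract and -0.16 without.

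The cyclic AMP response element TGACGTCA, which proteins of the CREB family bind, was searched on both strands from 250 bases before to 50 after the start, because ATF1 is part of the fusion. It was found in 4 of the 51 matched members (7.84%), against 2.03% of all genes. These 4 are shown because they are the members with the full element, which is in capitals.
Rpl13: gcgggttcgcgTGACGTCActtccctttcg, chr8:123102315-123102344, plus strand
Rpl26: cctccgagggaTGACGTCAggacccctcgc, chr11:68901421-68901450, plus strand
Rpl27a: gccgggagccgTGACGTCAggagcccttcc, chr7:109519087-109519116, plus strand
Rps9: gcggtgcgtgaTGACGTCActacaaggcga, chr7:3703973-3704002, plus strand
The first capital lies at position -24 from the annotated start in Rpl13, -134 in Rpl26, -97 in Rpl27a and -57 in Rps9. For tumor minus control these genes differed by -1.21, -1.10, -0.31 and -0.64 in that order, and for high doxycycline minus control by -0.81, -0.76, -0.31 and -0.64. Their medians were -0.87 and -0.70, beside -0.22 and -0.12 for the 43 matched members without the element that passed the filter. With only 4 genes on 1 side, this difference was not tested. The shorter motif TGACG, which every full element contains, was present in 23 members (45.1%), against 23.0% of all genes, and the ETS motif CCGGAAG in 19 (37.3%), against 9.93%. The genes set beside the members were not matched to them in brightness or base content. A match of letters is a description and does not show that a factor binds there. The element, the shorter motif and the ETS motif were chosen after the values were seen.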

How the data were processed

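Biotin-labelled total RNA was read on MoGene-1_0-st-v1 arrays of Affymetrix, per the labels. The authors deposited 1 table of linear intensities, with a value for each probe set on each array. Their background correction, probe summary and normalization were not given in the sources used here. All 3 value columns were mapped by title, and 0 columns were left out.

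Genes were named through the platform annotation (21789 probe sets with 1 symbol, 1621 with several, 5446 with none). A RefSeq table (GRCm38.p6) held the Entrez numbers of all 63 members, and 0 symbols changed. Another 239 probe sets with several symbols name a ribosomal protein and were left out, and 20 symbols occur only there. The brightest probe set by mean over the 3 arrays stood for a gene. Differences are of log2(intensity + 1), which understates changes of dim genes. A gene was kept where the brighter array of a pair exceeded its median over all probe sets, and calls take 2-fold. With 1 array per group no test was possible, and precision is limited by the number of arrays.

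The named genes are the 8 members at each end of a comparison, those past 2-fold, the 3 nearest the median, paralogs with parents, P-stalk and stress proteins, and up to 4 members past 2-fold of each related list. Rpl4, Rpl23, Rpl27a, Rpl28, Rpl36a, Rps9, Rps13, Ncl, Eef1a1, Larp1, Mtor, Myc, Gas5, Snhg5 and Fau were named after their values were seen. The members and lists were chosen with earlier results of these data known. The planned comparison of protein sequences was not made. Alternatives were common median and quantile scaling, no filter or one at percentile 75, the mean of probe sets, single-probe-set genes and pseudocounts of 16 and 64. The computation was tested on simulated data. Python 3.11.15, numpy 2.4.6, pandas 2.3.3 and matplotlib 3.10.9 were used.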

Additional observations from a re-analysis of the deposited data

How the results depend on the processing

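Medians of the members kept their sign under every alternative run, but not their size. For tumor minus control, -0.27 became -0.083 under a common median and -0.39 under quantile normalization. For high doxycycline minus control, -0.17 became -0.027, -0.31 and, among genes with a single probe set, -0.096. For tumor minus high doxycycline, -0.07 became -0.030 under a common median and -0.043 under quantile normalization. Relative to the median of all genes they ran from -0.55 to -0.26, from -0.47 to -0.16 and from -0.10 to -0.06. Counts past the fold moved too, and so did the shares of all genes. Members dimmer on tumor than on control, 13 in the report, were 7 under a common median, 5 among genes with a single probe set and 17 at a fold of 1.5, or 11.9%, 25% and 28.8% of members beside 8.04%, 10.3% and 18.1% of all genes. Those dimmer on high doxycycline than on control, 8 in the report, were 5, 3 and 17 in the same order of settings, or 8.47%, 15% and 28.8% beside 7.09%, 8.62% and 15.3%. Among core proteins, 11 were dimmer on tumor and 6 on high doxycycline. These are 20.8% and 11.3%, beside 10.2% and 8.45% of all genes. Members brighter on tumor than on control, 1 in the report, were 2 under a common median, 0 under quantile normalization, 0 among core proteins and 2 at a fold of 1.5. The shares of all genes beside these were 23.0%, 16.2%, 18.5% and 30.5%. Those brighter on high doxycycline than on control, 2 in the report, were 1 under quantile normalization and 0 among core proteins. Beside them stood 14.6% and 17.4% of all genes. The restriction to core proteins and the fold of 1.5 were chosen after seeing the data. The single-probe-set setting keeps only 20 members. In both comparisons with control, common median and quantile scaling moved the members' median in opposite directions, and the cause was not tested.

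Of the members past 2-fold, Rpl13, Rpl24, Rpl36, Rpl39l, Rps29, Rps3a1 and Rps4l stayed past it for tumor minus control under every scaling, filter, probe set choice and pseudocount that kept them. Rps14, Rps28, Rpsa, Rpl8, Rpl26 and Rpl37a fell inside it under a common median, at -0.83, -0.85, -0.83, -0.83, -0.91 and -0.96, and Rps14 also did at a pseudocount of 64. For high doxycycline minus control, Rpl24 had -0.96 as the mean of its probe sets. Signal over background could not be judged, since the table has no detection column. No paired analysis was possible because each group has 1 array, and no replicate could be left out.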

Other observations

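Genes that act on ribosomal protein synthesis were counted apart from the report's lists. Of 16 measured, 1 (6.25%) was at least 2-fold brighter on tumor than on control and 2 (12.5%) were dimmer, beside 18.5% and 10.2% of all genes. The median difference was -0.09 and became 0.10 under a common median. Rps6ka3, a kinase of the ribosomal S6 family, had 1092 on tumor, 816 on high doxycycline and 376 on control. Larp4, which binds poly(A) tails and the poly(A)-binding protein, had 688, 754 and 1659. Larp1, which binds oligopyrimidine starts, had 1794, 1779 and 2542, a difference of -0.50 for tumor minus control. Mtor itself had 617 on tumor, 637 on high doxycycline and 811 on control. Myc, a driver of ribosome production, had 1298, 1153 and 2295. Mycn was the member of this list that separated the array labelled tumor from the array labelled high doxycycline, at 464 against 1171, a difference of -1.33, and it had 1273 on control.

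Of 9 listed host genes of small nucleolar RNAs, 2 were measured. Gas5 had 1429 on tumor, 1366 on high doxycycline and 1311 on control, and Snhg5 had 448, 454 and 807. Fau, whose ribosomal protein is made as a fusion with a ubiquitin-like protein, had 8278, 8576 and 8774.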
